A study of Mus musculus with 34 samples.

Results

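The receptors for interleukin-2 (IL-2), IL-4, IL-7, IL-9, IL-15 and IL-21 were examined in mouse CD4+ spleen cells before and after a short stimulation. The genes were the 8 that encode the common gamma chain and the chains that pair with it, namely Il2ra, Il2rb, Il2rg, Il4ra, Il7r, Il9r, Il15ra and Il21r. They were found by symbol among the probe sets listed with 1 gene, and the brightest probe set stood for each gene. Of the 8 genes, 7 had a probe set listed, among 19938 genes in all, and each of the 7 had exactly 1. Il2rg was not analysed here.

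RNA came from CD4+ splenocytes of female mice, 8 weeks old, of 5 inbred strains, which were 129X1/SvJ, C57BL/6J, DBA/2J, A/J and Balb/c. The cells were taken with CD4 magnetic beads and kept in serum-containing medium. T1 cells received phorbol 12-myristate 13-acetate (PMA, 10 ng/ml) and ionomycin (1 uM) for 4 h, and T0 cells received neither. PMA acts on protein kinase C and ionomycin lets calcium into the cell, which bypasses the T cell receptor. The treatment text describes a culture for non-stimulated and stimulated cells alike, while the sample labels call T0 the basal state, so the time T0 cells spent in culture is uncertain. Each of the 34 arrays measured 1 sample, 17 at T1 and 17 at T0. At each time 4 arrays came from C57BL/6J and 4 from A/J, and 3 from each other strain. Replicates are labelled biological, and no label says whether 1 mouse or a pool gave a sample, so p-values measure the spread between these samples.

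Receptors of this family share the gamma chain, and the second chain decides which cytokine binds. The IL-2 receptor alpha chain (CD25, Il2ra) raises the affinity for IL-2, while the beta chain (Il2rb) serves both IL-2 and IL-15. Binding activates the kinases JAK1 and JAK3 and then STAT transcription factors, mainly STAT5 for IL-2, IL-7, IL-9 and IL-15, STAT6 for IL-4 and STAT3 for IL-21. In resting CD4+ T cells the IL-7 receptor sustains survival, and activated T cells are known for gaining CD25 and losing the IL-7 receptor.

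Values are log2 intensities from the deposited table, so a difference of 1 is a doubling, and levels of different probe sets are not set against each other. All differences were tested in 1 limma model over 11413 genes whose highest group mean reached the median of all values (5.327), and all 7 receptor genes passed this limit. A gene is called when its adjusted p was under 0.05. Array medians lay between 5.28 and 5.39. The Balb/c T1 array of number 2 was the least like its own group, with a median correlation of 0.948 to the group's other arrays, and leaving out both Balb/c arrays of that number removed no receptor call for mean stimulation. Cd4 marks helper T cells and Cd3e marks T cells in general. They averaged 8.02 to 8.95 and 8.47 to 9.08 in the T1 groups, against 9.23 to 9.58 and 9.07 to 9.71 in the T0 groups. Of 11 CD4 T cell genes kept, 4 rose and 5 fell, beside 36% and 46.3% of all genes, with a median change of 0.04. These counts lie near those shares and are no result about the list. B cell genes were also measured. Of 15 kept, 3 rose and 12 fell, beside the same 36% and 46.3% of all genes, with a median change of -1.60. Their mean level was 6.30 to 6.72 in the T1 groups, against 7.23 to 8.29 in the T0 groups. In such bulk RNA, fewer cells of a type and less RNA per cell cannot be told apart.

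The promoter windows of Il2ra, Il15ra and Il7r are shown because these are the genes whose T1 and T0 arrays did not overlap. Each window runs from 250 bases before a start site to 50 bases from it onward, is taken from RefSeq on GRCm38.p6 and is given 5′ to 3′ on the gene's strand. Capitals mark matches on either strand to the AP-1 motif TGANTCA, the NFAT core GGAAA, the STAT motif TTCNNNGAA or the kappaB consensus. PMA is known to raise AP-1 and NF-kappaB activity and calcium to activate NFAT.
Il2ra, chr2:11642542-11642841, plus strand: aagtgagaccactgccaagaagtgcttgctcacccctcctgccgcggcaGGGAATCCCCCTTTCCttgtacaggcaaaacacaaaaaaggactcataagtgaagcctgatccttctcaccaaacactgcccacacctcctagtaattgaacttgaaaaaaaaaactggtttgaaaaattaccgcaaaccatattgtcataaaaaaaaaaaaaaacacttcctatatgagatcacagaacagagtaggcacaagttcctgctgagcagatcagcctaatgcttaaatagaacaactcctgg
Il15ra, chr2:11705043-11705342, plus strand: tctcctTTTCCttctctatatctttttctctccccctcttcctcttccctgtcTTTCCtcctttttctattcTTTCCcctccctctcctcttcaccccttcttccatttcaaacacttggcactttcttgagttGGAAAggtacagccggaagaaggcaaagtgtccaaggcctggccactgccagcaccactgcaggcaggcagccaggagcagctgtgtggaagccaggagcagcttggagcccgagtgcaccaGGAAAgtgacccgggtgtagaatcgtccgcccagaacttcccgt
Il15ra, chr2:11705462-11705761, plus strand: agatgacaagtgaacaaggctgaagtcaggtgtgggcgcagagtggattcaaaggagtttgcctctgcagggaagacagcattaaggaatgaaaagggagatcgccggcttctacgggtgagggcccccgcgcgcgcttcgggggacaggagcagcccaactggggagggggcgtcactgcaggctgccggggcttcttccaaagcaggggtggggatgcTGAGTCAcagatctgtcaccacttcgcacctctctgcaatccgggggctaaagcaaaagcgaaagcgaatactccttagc
Il7r, chr15:9529827-9530126, minus strand: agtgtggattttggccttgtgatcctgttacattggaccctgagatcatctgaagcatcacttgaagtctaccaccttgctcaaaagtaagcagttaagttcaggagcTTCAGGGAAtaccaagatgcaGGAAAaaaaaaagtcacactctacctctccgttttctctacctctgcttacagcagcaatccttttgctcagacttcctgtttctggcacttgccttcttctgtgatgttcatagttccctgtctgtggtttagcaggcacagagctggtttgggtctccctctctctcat

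The Il2ra window held 2 overlapping kappaB matches at positions -201 to -191 from the start site, with an NFAT core at -190 to -186. The upstream Il15ra window held 5 NFAT cores, and the downstream one held 1 AP-1 match at -30 to -24. In the Il7r window, 1 STAT match and 1 NFAT core were found. Among 32851 RefSeq windows of this length, 61.34% held the NFAT core, 8.46% the kappaB consensus, 8.3% the STAT motif and 7.81% the AP-1 motif. The windows of Il9r and Il21r held none of the 4 motifs, the Il4ra window held 2 NFAT cores, 1 of them within a kappaB match, and 6 of the 7 measured genes had a window in the table. A match describes letters only, and binding was not measured.

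The first question was which receptor genes changed with stimulation over the 5 strains. Il2ra and Il15ra rose, Il7r, Il4ra and Il9r fell, and Il2rb and Il21r were not called. The 5 called of 7 stand beside 82.3% of all genes called, so this share is no result about the family. Split by direction, 2 of 7 rose, against 36% of all genes, and 3 of 7 fell, against 46.3%. At 1 log2 or more, 3 of 7 were called (Il2ra, Il15ra and Il7r), against 15.8% of all genes. In these 3 genes the 17 T1 arrays and the 17 T0 arrays did not overlap, which held for 26.7% of all genes. They were also the 3 receptor genes called with 1 sign in each of the 5 strains, as were 39.4% of all genes. The median change was -0.05 over the 7 genes and -0.07 over all genes kept. These calls for Il2ra, Il15ra and Il7r held under every alternative that was run.

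**Figure D1:**
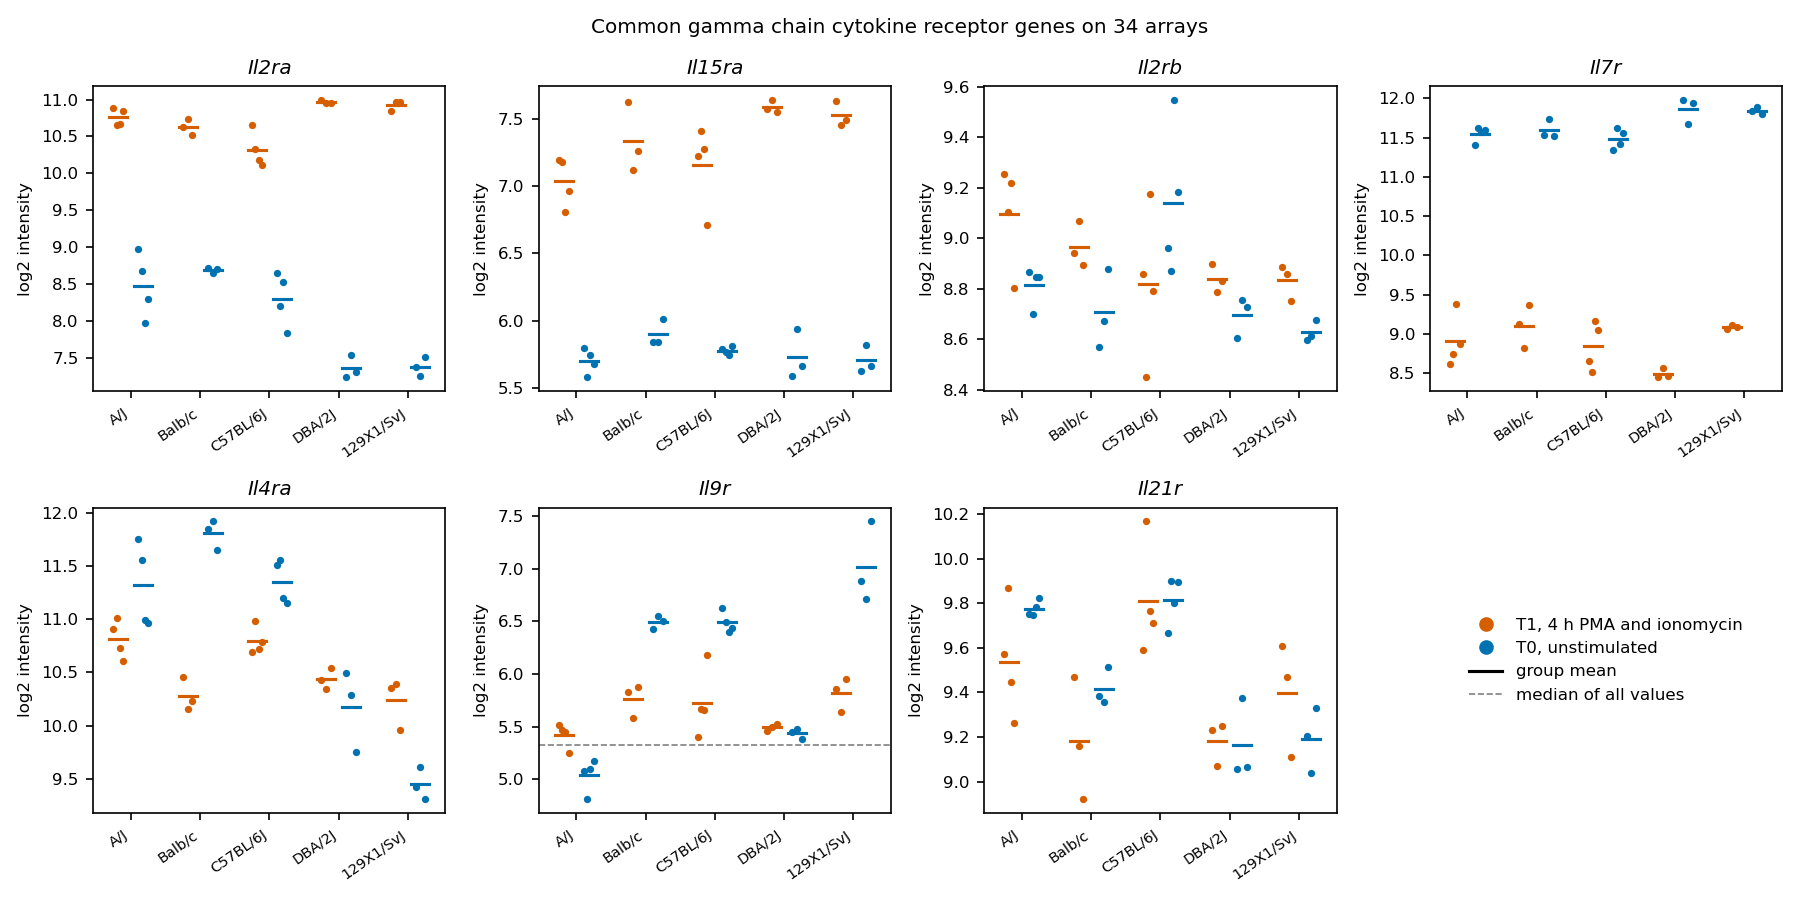
Log2 intensity of the 7 receptor genes on each of the 34 arrays, by strain, with T1 (orange) left of T0 (blue); short lines are group means and the dashed line is the median of all values (5.327). The T1 and T0 points are apart in every strain for Il2ra, Il15ra and Il7r, while the T0 points of Il4ra and Il9r differ by strain.

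Il2ra was higher at T1 in all 17 numbered pairs. Its 17 T1 values ran from 10.12 through a median of 10.74 to 11.00, against 7.24, 8.20 and 8.97 at T0. In A/J it read 10.88, 10.65, 10.67 and 10.85 at T1, against 8.97, 8.68, 7.97 and 8.30 at T0. In Balb/c it read 10.63, 10.74 and 10.52 at T1, against 8.72, 8.66 and 8.70 at T0. These strains began high, and the lowest T1 array was above the highest T0 array in each. C57BL/6J gave 10.66, 10.33, 10.18 and 10.12 at T1, against 8.65, 8.20, 8.53 and 7.84 at T0. DBA/2J gave 11.00, 10.95 and 10.95 at T1, against 7.24, 7.54 and 7.31 at T0. For 129X1/SvJ the values were 10.85, 10.96 and 10.96 at T1, against 7.37, 7.25 and 7.52 at T0. The T0 arrays of DBA/2J and 129X1/SvJ were all below those of the other 3 strains. The mean change was 2.68 ± 0.08 (SE, limma adjusted p = 9.30e-24), a 6.39-fold rise. By strain it was 12.1-fold in DBA/2J and 11.7-fold in 129X1/SvJ. A/J gave 4.87-fold, C57BL/6J 4.04-fold and Balb/c 3.83-fold.

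Il15ra, the chain that binds IL-15 with high affinity and can present it to neighbouring cells, lies beside Il2ra on chromosome 2 and also rose in all 17 pairs. Its T1 values ran from 6.71 through a median of 7.28 to 7.64, against 5.58, 5.76 and 6.01 at T0. A/J gave 7.19, 7.18, 6.81 and 6.96 at T1, against 5.80, 5.58, 5.75 and 5.68 at T0. Balb/c gave 7.63, 7.12 and 7.26 at T1, against 5.84, 5.84 and 6.01 at T0. The 2 times were apart in both strains. Values in C57BL/6J were 7.22, 7.41, 7.28 and 6.71 at T1, against 5.79, 5.76, 5.75 and 5.81 at T0. Those in DBA/2J were 7.57, 7.64 and 7.55 at T1, against 5.59, 5.94 and 5.66 at T0. Those in 129X1/SvJ were 7.63, 7.46 and 7.49 at T1, against 5.63, 5.82 and 5.66 at T0. No T1 array of these strains reached down to a T0 array. The mean change was 1.57 ± 0.06 (adjusted p = 4.95e-21), a 2.96-fold rise, with strain values between 1.34 in A/J and 1.86 in DBA/2J.

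Il7r encodes the alpha chain of the IL-7 receptor, which also serves the cytokine TSLP. It was lower at T1 in all 17 pairs, with values of 8.44, 8.87 and 9.38 (lowest, median and highest) at T1, against 11.34, 11.63 and 11.98 at T0. In A/J it read 8.62, 8.75, 9.38 and 8.87 at T1, against 11.41, 11.63, 11.57 and 11.60 at T0. In Balb/c it read 9.12, 8.82 and 9.37 at T1, against 11.53, 11.74 and 11.52 at T0. The 2 times were far apart in both strains. C57BL/6J gave 8.65, 8.52, 9.16 and 9.05 at T1, against 11.34, 11.63, 11.41 and 11.56 at T0. DBA/2J gave 8.44, 8.57 and 8.46 at T1, against 11.98, 11.68 and 11.94 at T0. For 129X1/SvJ the values were 9.06, 9.11 and 9.09 at T1, against 11.83, 11.89 and 11.80 at T0. The gap between times exceeded 2 log2 in every strain. The mean change was -2.78 ± 0.07 (adjusted p = 1.20e-25), a 6.88-fold fall, and time accounted for 96.9% of the sum of squares of this gene, against a median of 45.8% over all genes kept.

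Il2rb and Il21r moved little in the main setting, and the direction for Il21r hung on the setting. Il2rb averaged 8.92 ± 0.20 at T1 and 8.82 ± 0.25 at T0 (SD, n = 17 each), and the mean change was 0.11 ± 0.06 (limma adjusted p = 0.0888), higher at T1 in 12 of 17 pairs. Its change was -0.32 ± 0.13 in C57BL/6J (adjusted p = 0.0265) and between 0.14 and 0.28 in the other strains, where it was not called. The A/J value (adjusted p = 0.0572) was called in 5 of the fits without 1 array, among them that without A/J T1 replicate 5 (0.38, adjusted p = 0.0147). Under several alternative settings, given at the end, Il2rb was also called in A/J, and in some of them in Balb/c. That C57BL/6J call was lost without C57BL/6J T1 replicate 2 (-0.20, adjusted p = 0.164) or T0 replicate 3 (-0.19, adjusted p = 0.182), and narrowly without T0 replicate 4 (adjusted p = 0.0513) or T1 replicate 4 (adjusted p = 0.0515). The mean change of Il2rb was called without A/J T1 replicate 5 (adjusted p = 0.0414), C57BL/6J T1 replicate 2 (adjusted p = 0.0278) or C57BL/6J T0 replicate 3 (adjusted p = 0.0222). Il21r, the IL-21 binding chain, averaged 9.45 ± 0.32 at T1 and 9.51 ± 0.31 at T0 (SD, n = 17 each). Its mean change was -0.05 ± 0.06 (limma adjusted p = 0.457), and strain values ran from -0.24 in A/J to 0.20 in 129X1/SvJ. It was called without A/J T1 replicate 2 in A/J (-0.35, adjusted p = 0.0275) and without Balb/c T1 replicate 1 in Balb/c (-0.38, adjusted p = 0.0485).

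Il4ra, the IL-4 binding chain that also serves IL-13, changed in opposite directions between strains. In Balb/c it read 10.46, 10.16 and 10.23 at T1, against 11.85, 11.92 and 11.65 at T0. In A/J it read 10.91, 11.01, 10.73 and 10.60 at T1, against 11.75, 11.56, 10.99 and 10.97 at T0. In C57BL/6J it read 10.69, 10.98, 10.72 and 10.78 at T1, against 11.51, 11.56, 11.20 and 11.15 at T0. Every T1 array of Balb/c and C57BL/6J lay below every T0 array, while 1 A/J T1 array was above the lowest A/J T0 arrays. DBA/2J gave 10.43, 10.35 and 10.54 at T1, against 10.50, 10.28 and 9.75 at T0. For 129X1/SvJ the values were 10.35, 10.40 and 9.96 at T1, against 9.43, 9.61 and 9.31 at T0. The DBA/2J times overlapped, and all 129X1/SvJ arrays were higher at T1. The change was -1.52 ± 0.18 in Balb/c (adjusted p = 2.92e-08), -0.56 ± 0.16 in C57BL/6J (adjusted p = 0.00282) and -0.51 ± 0.16 in A/J (adjusted p = 0.00712). It was 0.26 ± 0.18 in DBA/2J (adjusted p = 0.213) and 0.79 ± 0.18 in 129X1/SvJ (adjusted p = 0.000463). The A/J call was lost without A/J T0 replicate 1 (-0.36, adjusted p = 0.0570).

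The mean change of Il4ra over strains, -0.31 ± 0.08 (limma adjusted p = 0.000616), averaged these opposite signs. Centring each array on its median moved the median change of all genes to 0.16. With that centring, the mean change of Il4ra fell to -0.08 (adjusted p = 0.305), and its calls in A/J and C57BL/6J were lost (adjusted p = 0.0749 and 0.0625), while DBA/2J was called higher at T1 (0.52, adjusted p = 0.00864). Il2rb was then called higher at T1 over the strains (0.34, adjusted p = 2.02e-05) and lost its C57BL/6J call (-0.07, adjusted p = 0.641). The mean change of Il21r then turned to 0.18 (adjusted p = 0.0149). Without centring, and with the arrays of numbers 3, 4 and 5 alone, that mean change was -0.29, with -0.45 in A/J and -0.59 in Balb/c.

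Il9r, the IL-9 binding chain, also changed by strain. It fell in 129X1/SvJ, with 5.86, 5.64 and 5.95 at T1, against 6.89, 6.71 and 7.45 at T0. It fell in Balb/c, with 5.83, 5.58 and 5.88 at T1, against 6.43, 6.55 and 6.50 at T0. It fell in C57BL/6J, with 5.40, 5.67, 5.66 and 6.18 at T1, against 6.63, 6.50, 6.40 and 6.44 at T0. T1 and T0 did not overlap in these strains. In A/J it read 5.52, 5.47, 5.45 and 5.25 at T1, against 5.08, 4.81, 5.10 and 5.18 at T0. In DBA/2J it read 5.46, 5.50 and 5.53 at T1, against 5.45, 5.48 and 5.39 at T0. The A/J times did not overlap either, while those of DBA/2J did. These values lie close to the limit of 5.327, and the A/J T0 mean of 5.04 lies under it, so the size of the A/J change is not exact. The changes were -1.20 ± 0.15 in 129X1/SvJ (adjusted p = 7.23e-08), -0.76 ± 0.13 in C57BL/6J (adjusted p = 9.48e-06), -0.73 ± 0.15 in Balb/c (adjusted p = 0.000154), 0.38 ± 0.13 in A/J (adjusted p = 0.0144) and 0.06 ± 0.15 in DBA/2J (adjusted p = 0.759). The A/J call was lost without A/J T0 replicate 2 (0.31, adjusted p = 0.0687). Over the strains the mean change was -0.45 ± 0.06 (limma adjusted p = 2.16e-07), with 7 of 17 pairs higher at T1.

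**Figure D2:**
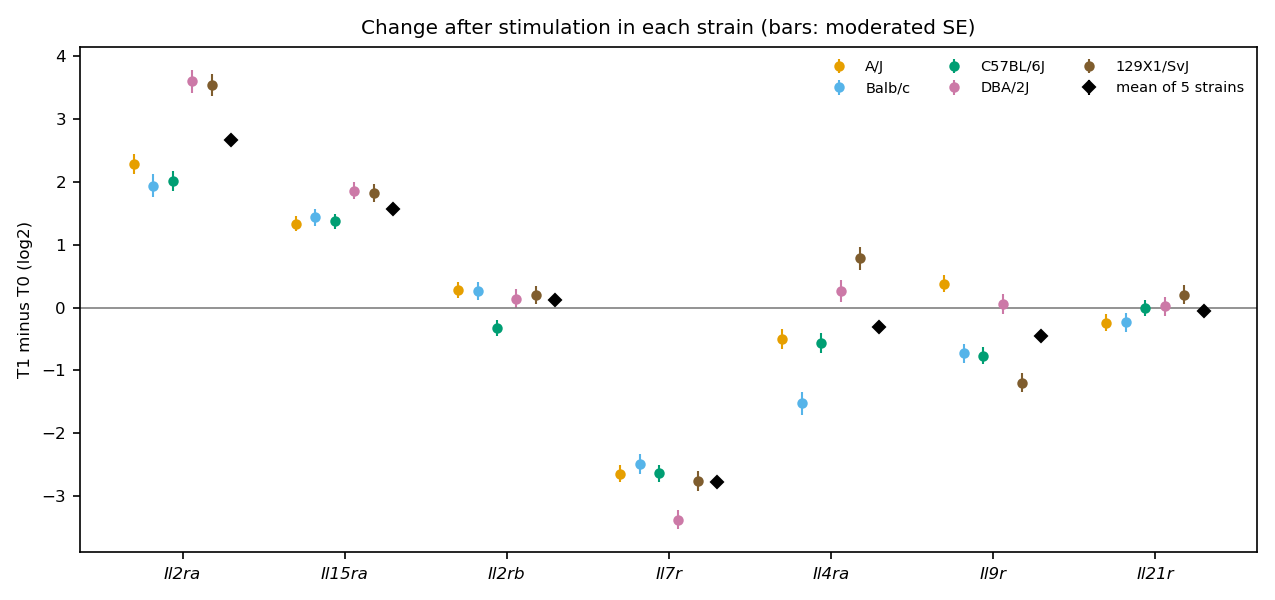
Change of each receptor gene after stimulation, T1 minus T0 on the log2 scale, in each strain (circles) and as the mean of the 5 strains (diamonds), with moderated standard errors. Il2ra and Il15ra lie above 0 and Il7r below 0 in every strain, whereas Il4ra runs from -1.52 in Balb/c to 0.79 in 129X1/SvJ.

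By strain, stimulation called 6 of the 7 genes in C57BL/6J, where 63.7% of all genes were called. The count was 5 in A/J (56.6% of all genes), Balb/c (54.7%) and 129X1/SvJ (56.3%), and 3 in DBA/2J (60%). With 7 genes, 1 call moves such a share by a wide margin, and nothing is read from these counts. The test of the difference between strains is the moderated F of the response, which called 3 of 7 receptor genes (Il2ra, Il4ra and Il9r), against 6.92% of all genes. The strain values of the response spanned 2.31 log2 for Il4ra (adjusted p = 3.05e-06), 1.66 for Il2ra (adjusted p = 6.07e-06) and 1.58 for Il9r (adjusted p = 8.78e-06), against a median span of 0.36 over all genes kept. These 3 calls held under every alternative run. Il7r was not called (limma adjusted p = 0.0540), and it was called without Balb/c T1 replicate 2 (adjusted p = 0.0171) and in 6 other fits that each left out 1 of the A/J T1 arrays of numbers 1 and 4, the C57BL/6J T1 arrays of numbers 1, 2 and 3 or the DBA/2J T0 array of number 3. Several alternative settings, given at the end, also called the response of Il7r. Il2rb was called without C57BL/6J T1 replicate 3 (adjusted p = 0.0283), which brought the count to 5.

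Against the mean of the other 4 strains, the response of Il2ra was larger in DBA/2J by 1.16 ± 0.20 (limma adjusted p = 0.000951) and in 129X1/SvJ by 1.08 ± 0.20 (adjusted p = 0.00188). For the same gene it was smaller in C57BL/6J, with a difference of -0.83 ± 0.18 (adjusted p = 0.00730). The response of Il4ra differed by -1.52 ± 0.20 in Balb/c (adjusted p = 5.86e-05) and by 1.37 ± 0.20 in 129X1/SvJ (adjusted p = 0.000179). That of Il9r differed by 1.04 ± 0.15 in A/J (adjusted p = 0.000158) and by -0.93 ± 0.17 in 129X1/SvJ (adjusted p = 0.00138). The calls of Il2ra in Balb/c (-0.92, adjusted p = 0.0200) and of Il9r in DBA/2J (0.63, adjusted p = 0.0357) were each lost without single arrays of that strain, with adjusted p up to 0.0850 and 0.109. Also called, in genes whose F test of the response was not, were Il7r in DBA/2J (-0.74, adjusted p = 0.0153) and Il2rb in C57BL/6J (-0.55, adjusted p = 0.0317). Both were lost without any 1 of 4 arrays, which were the DBA/2J arrays of numbers 2 and 4 at either time for Il7r and C57BL/6J T1 replicates 2 and 4 and T0 replicates 3 and 4 for Il2rb, with adjusted p up to 0.0738 and 0.136. The share of all genes called was 2.76% for C57BL/6J, 2.38% for DBA/2J, 1.95% for 129X1/SvJ, 1.03% for A/J and 0.526% for Balb/c.

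Before stimulation, the strains differed in 5 of the 7 genes (Il2ra, Il2rb, Il4ra, Il9r and Il21r), against 18.5% of all genes. Il4ra had the widest span of strain means among the 7. Its T0 order was Balb/c at 11.81 ± 0.14, C57BL/6J at 11.35 ± 0.21, A/J at 11.32 ± 0.40, DBA/2J at 10.18 ± 0.39 and 129X1/SvJ at 9.45 ± 0.15 (SD, n = 3 or 4). C57BL/6J and A/J did not differ beyond their spread, and each other neighbouring pair had a gap above the larger SD and no overlapping arrays. The span of 2.35 log2 is 5.12-fold (limma adjusted p = 2.12e-11).

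Il2ra at T0 fell into a higher set of strains, Balb/c at 8.69 ± 0.04, A/J at 8.48 ± 0.44 and C57BL/6J at 8.31 ± 0.37, and a lower set, 129X1/SvJ at 7.38 ± 0.13 and DBA/2J at 7.36 ± 0.16. Within each set the gaps were under the SD, and between the sets no arrays overlapped (span 1.33, limma adjusted p = 2.10e-07). Il9r had another order, with 129X1/SvJ at 7.01 ± 0.39, Balb/c at 6.49 ± 0.06, C57BL/6J at 6.49 ± 0.10, DBA/2J at 5.44 ± 0.05 and A/J at 5.04 ± 0.16. Its span was 1.97 (limma adjusted p = 6.25e-12), and among neighbours Balb/c and C57BL/6J did not differ beyond their spread. For Il21r, C57BL/6J (9.82 ± 0.11) and A/J (9.78 ± 0.03) lay above Balb/c (9.42 ± 0.08), and 129X1/SvJ (9.19 ± 0.15) and DBA/2J (9.17 ± 0.18) lay below it (limma adjusted p = 0.000458). Il2rb was highest in C57BL/6J at 9.14 ± 0.30 and had means of 8.63 to 8.81 elsewhere (limma adjusted p = 0.0260), and this call was lost without C57BL/6J T0 replicate 3 (adjusted p = 0.208) or replicate 4 (adjusted p = 0.0830). Il7r spanned 0.38 and Il15ra 0.20 over the strains at T0, and neither was called (limma adjusted p = 0.173 and 0.816).

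Against the mean of the other 4 strains at T0, Il4ra was 1.23 ± 0.14 higher in Balb/c, 0.67 ± 0.13 higher in C57BL/6J and 0.62 ± 0.13 higher in A/J, and it differed by -1.71 ± 0.14 in 129X1/SvJ and -0.81 ± 0.14 in DBA/2J, and all 5 differences were called. Il2ra was 0.81 ± 0.14 higher in Balb/c and differed by -0.85 ± 0.14 in DBA/2J and -0.83 ± 0.14 in 129X1/SvJ, all called, while the called difference of 0.54 in A/J was lost without A/J T0 replicate 1 (0.38, adjusted p = 0.0926). Il9r differed by -1.32 ± 0.11 in A/J, 1.15 ± 0.12 in 129X1/SvJ, -0.82 ± 0.12 in DBA/2J and 0.49 ± 0.11 in C57BL/6J, all called. The called difference of Il9r in Balb/c (0.50) was lost without any 1 of the 3 Balb/c T0 arrays, with adjusted p up to 0.116. Il21r was called in C57BL/6J (0.43 ± 0.11). Its calls in A/J (0.38) and DBA/2J (-0.38) were lost without single arrays, with adjusted p up to 0.0866 and 0.272, and Il2rb was called in C57BL/6J (0.43), with adjusted p = 0.0823 without T0 replicate 3. Of all genes, 9.44% were called for 129X1/SvJ, 8.92% for C57BL/6J, 7.21% for A/J, 6.34% for DBA/2J and 3.54% for Balb/c. Over T0 and the response together, 29 differences from the other 4 strains were called, and 12 of them were lost with the arrays of numbers 1 and 2 alone and 20 with those of numbers 3, 4 and 5 alone, which leave 1 to 2 arrays a group.

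After stimulation the spans of Il4ra, Il2ra and Il9r were narrower. They were 0.58 at T1 against 2.35 at T0 for Il4ra, 0.65 against 1.33 for Il2ra and 0.39 against 1.97 for Il9r. The F test at T1 called 5 of 7 genes (Il2ra, Il4ra, Il7r, Il15ra and Il21r), against 31% of all genes. Il4ra then lay at 10.81 ± 0.18 in A/J, 10.79 ± 0.13 in C57BL/6J, 10.44 ± 0.10 in DBA/2J, 10.28 ± 0.16 in Balb/c and 10.24 ± 0.24 in 129X1/SvJ (limma adjusted p = 0.0122), and the gap between C57BL/6J and DBA/2J was the one above the SD. Il2ra ran from 10.96 ± 0.03 in DBA/2J to 10.32 ± 0.24 in C57BL/6J (limma adjusted p = 0.0177). Il7r ran from 9.10 ± 0.27 in Balb/c to 8.49 ± 0.07 in DBA/2J (limma adjusted p = 0.0170), Il15ra from 7.59 ± 0.05 in DBA/2J to 7.04 ± 0.18 in A/J (limma adjusted p = 0.00385) and Il21r from 9.81 ± 0.25 in C57BL/6J to 9.18 in Balb/c and DBA/2J (limma adjusted p = 0.00287). At T1 neighbouring strains of these genes overlapped, apart from C57BL/6J and DBA/2J for Il4ra. The Il2ra call was lost without C57BL/6J T1 replicate 3 (adjusted p = 0.0606) or 4 (adjusted p = 0.0656), and the Il7r call without DBA/2J T1 replicate 2 (adjusted p = 0.0670) or 4 (adjusted p = 0.0602). Il9r was not called (limma adjusted p = 0.0873), and was called without C57BL/6J T1 replicate 1 (adjusted p = 0.0357) or 129X1/SvJ T0 replicate 4 (adjusted p = 0.0387). Arrays of numbers 1 and 2 alone called 1 of 7 genes at T1 and those of numbers 3, 4 and 5 alone called 3.

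**Figure D3:**
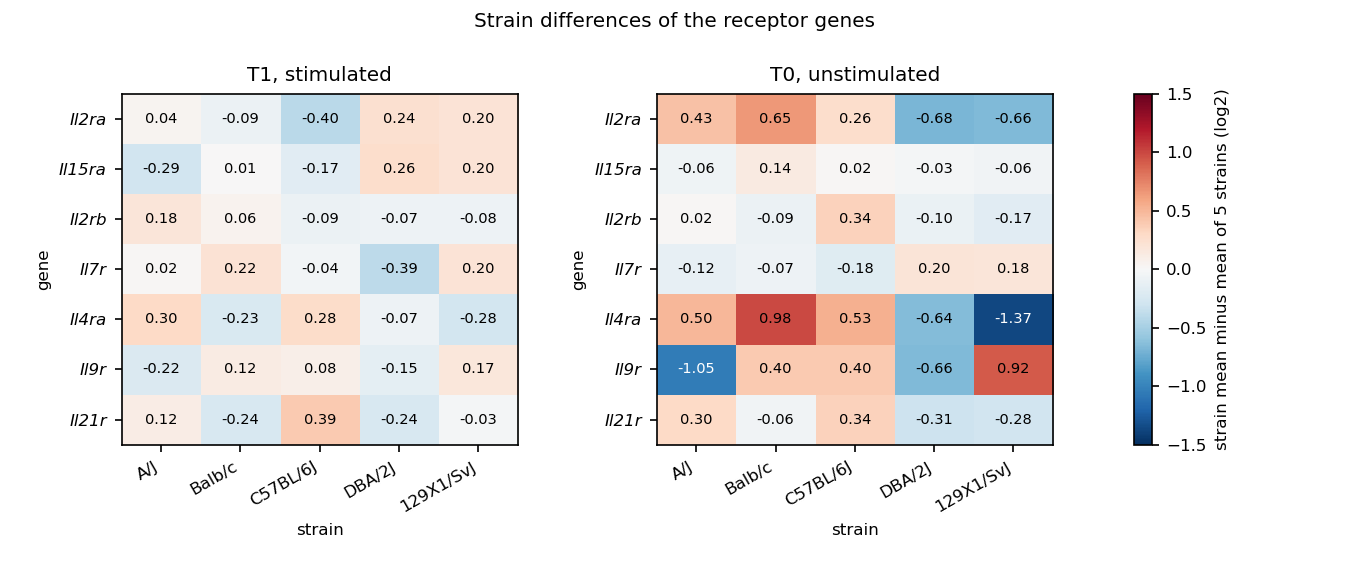
Mean log2 level of each receptor gene in each strain minus the mean of the 5 strains, at T1 (left) and T0 (right). At T0 Il4ra runs from -1.37 in 129X1/SvJ to 0.98 in Balb/c and Il9r from -1.05 in A/J to 0.92 in 129X1/SvJ, while the entries at T1 lie between -0.40 and 0.39.

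Cell type genes also differed between strains, in an order that varied by list. At T0 the B cell gene mean was 8.29 in 129X1/SvJ and 8.18 in DBA/2J, against 7.23 to 7.58 in the 3 strains with the lower means, so the strains with the highest B cell gene means at T0 were those with the lowest Il4ra and Il2ra. At T1 it was 6.72 in 129X1/SvJ, 6.59 in DBA/2J, 6.48 in C57BL/6J, 6.45 in Balb/c and 6.30 in A/J. Regulatory T cells carry Il2ra before activation. Their 7 kept genes had 1 rise and 2 falls after stimulation, and their mean level at T0 was 7.34 in Balb/c and 7.18 in A/J, and 6.89 to 6.92 elsewhere. Foxp3, their defining factor, averaged 8.21 in Balb/c, 8.17 in A/J, 7.83 in 129X1/SvJ, 7.77 in DBA/2J and 7.50 in C57BL/6J at T0. Array values have no zero, so the absence of a cell type cannot be read from them. After stimulation none of 9 neutrophil genes rose and 8 fell. Of 18 myeloid genes 1 rose and 8 fell, of 9 CD8 T and NK cell genes 2 rose and 6 fell, and none of 7 erythroid genes was called, beside 36% of all genes that rose and 46.3% that fell. The part of any of these cell types in the receptor differences was not tested.

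The ligands were measured in the same cells. Of 6 ligand genes, 4 were kept, and all 4 rose, beside 36% of all genes, with a median change of 3.14. Il2 and Il9 reached the limit only in T1 groups, so their rise is tied to their being kept. The count and the median are therefore no result about the ligands. Il2, whose product acts through Il2ra and Il2rb, averaged 10.44 to 10.95 in the T1 groups, against 3.82 to 5.32 in the T0 groups, and rose by 5.94 ± 0.09. These T0 means lie under the limit of 5.327, so the size is not exact. Il21 rose by 4.03 ± 0.15, with T1 means of 8.27 to 9.34 against T0 means of 3.61 to 5.86. The T0 mean of A/J alone was above the limit, so this size is not exact either. Il9 rose by 0.55 ± 0.08, with T1 means of 4.87 to 5.33 against T0 means of 4.39 to 4.72. The T1 mean of DBA/2J alone was above the limit, so its size is not exact. Il7 and Il15, which stromal and myeloid cells are known to supply, stayed below the limit in every group.

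Il4 differed most by strain among the ligands. It averaged 10.80 ± 0.17 at T1 and 10.61 ± 0.49 at T0 in A/J (SD, n = 4 each). Balb/c had 11.42 ± 0.43 at T1 and 10.29 ± 0.24 at T0 (n = 3 each), and C57BL/6J had 10.90 ± 0.55 at T1 and 9.72 ± 0.31 at T0 (n = 4 each). In DBA/2J it averaged 11.79 ± 0.17 at T1 and 6.89 ± 0.38 at T0, and in 129X1/SvJ 10.65 ± 0.22 at T1 and 6.85 ± 0.44 at T0. At T0 Il4 was thus more than 2 log2 lower in DBA/2J and 129X1/SvJ, the strains in which Il4ra and Il2ra were lowest. Its changes were 4.90 in DBA/2J, 3.80 in 129X1/SvJ, 1.18 in C57BL/6J, 1.13 in Balb/c and 0.19 in A/J, where it was not called. The difference in response was called (limma adjusted p = 5.91e-10). The partner list kept 2 of 5 genes, both called higher at T1, beside 36% of all genes. These were Il13, a ligand that shares Il4ra (3.63 ± 0.09, not exact because its T0 means in DBA/2J, 5.30, and 129X1/SvJ, 5.06, lie under the limit), and Crlf2, the chain that joins Il7r to bind TSLP (0.30 ± 0.04).

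Of 7 kinase and STAT genes measured, 3 rose and 4 fell, with a median change of -0.59, beside 36% and 46.3% of all genes, so that all 7 were called where 82.3% of all genes were. Jak2 rose by 1.17 ± 0.06 and Stat3 by 0.30 ± 0.05, while the largest falls were those of Stat5b (-0.99 ± 0.04) and Tyk2 (-0.67 ± 0.11). Jak1 (-0.59 ± 0.04) and Stat6 (-0.61 ± 0.05) also fell, and Jak3 was not among the 7 genes. Stat5a and Stat5b encode the STAT5 proteins. Stat5a rose in DBA/2J (10.58 ± 0.11 at T1 against 9.65 ± 0.10 at T0) and 129X1/SvJ (10.72 ± 0.10 against 9.53 ± 0.21). In A/J its change was -0.23 and in C57BL/6J -0.11, neither called, and it fell by 0.34 in Balb/c (limma adjusted p of the strain difference = 2.08e-07).

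Of 15 STAT target and feedback genes kept, 10 rose and 4 fell, beside 36% and 46.3% of all genes, with a median change of 0.73. Myc, a driver of growth, rose by 3.22 ± 0.06 and Bcl2l1, a survival gene, by 1.91 ± 0.08. Ptpn6, a phosphatase that dampens receptor signals, fell by 1.36 ± 0.08 and Bcl2, another survival gene, by 0.95 ± 0.11. The strain F test at T0 called 11 of the 15, beside 18.5% of all genes. Cish, a feedback inhibitor induced by STAT5, averaged 6.82 ± 0.11 in 129X1/SvJ and 6.66 ± 0.11 in DBA/2J at T0, while A/J had 9.07 ± 0.18, Balb/c 8.83 ± 0.03 and C57BL/6J 8.38 ± 0.18 (limma adjusted p = 1.05e-15). At T1 its means lay between 9.21 and 9.81. Socs1, which inhibits JAK kinases, averaged 6.83 in 129X1/SvJ and 7.12 in DBA/2J at T0, while C57BL/6J had 8.76, Balb/c 8.58 and A/J 8.56 (limma adjusted p = 3.90e-10), and its mean change was not called (0.12 ± 0.08, limma adjusted p = 0.194). Both genes were lowest at T0 in DBA/2J and 129X1/SvJ, as were Il4, Il4ra and Il2ra. Cish and Socs1 were named after their values were seen, so this likeness is a description only.

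**Figure D4:**
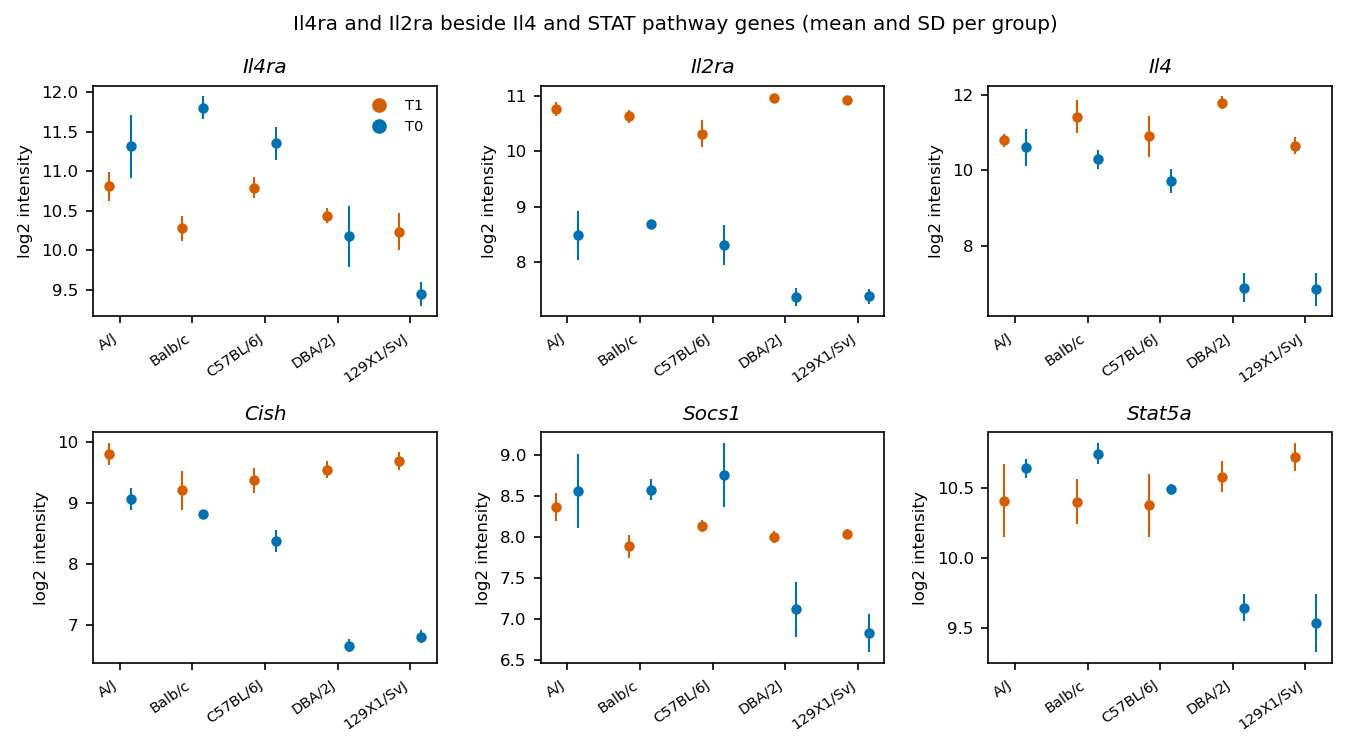
Mean and SD of log2 intensity in each strain at T1 (orange, left) and T0 (blue, right) for Il4ra and Il2ra and for Il4, Cish, Socs1 and Stat5a. In all 6 panels the T0 means of DBA/2J and 129X1/SvJ are the lowest of the 5 strains, and the T1 means lie closer together. Cish, Socs1 and Stat5a were chosen after their values were seen, so the shared order is a description only.

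Of 8 factors known to regulate Il7r, 3 rose and 3 fell, beside 36% and 46.3% of all genes, with a median change of 0.04. Gfi1, a repressor of Il7r, rose by 2.13 ± 0.04 and Runx1 by 0.40 ± 0.04, while Ets1 fell by 1.82 ± 0.06 and Klf2 by 0.76 ± 0.09. Among 24 other cytokine receptor genes kept, 5 rose and 17 fell, beside 36% and 46.3% of all genes, with a median change of -0.61. Il1r2, a decoy receptor for IL-1, rose by 2.62 ± 0.13 and Il23r by 1.42 ± 0.09. The largest falls were those of Ifngr1, the interferon gamma receptor chain (-2.70 ± 0.07), and Il18r1 (-1.93 ± 0.05).

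**Figure D5:**
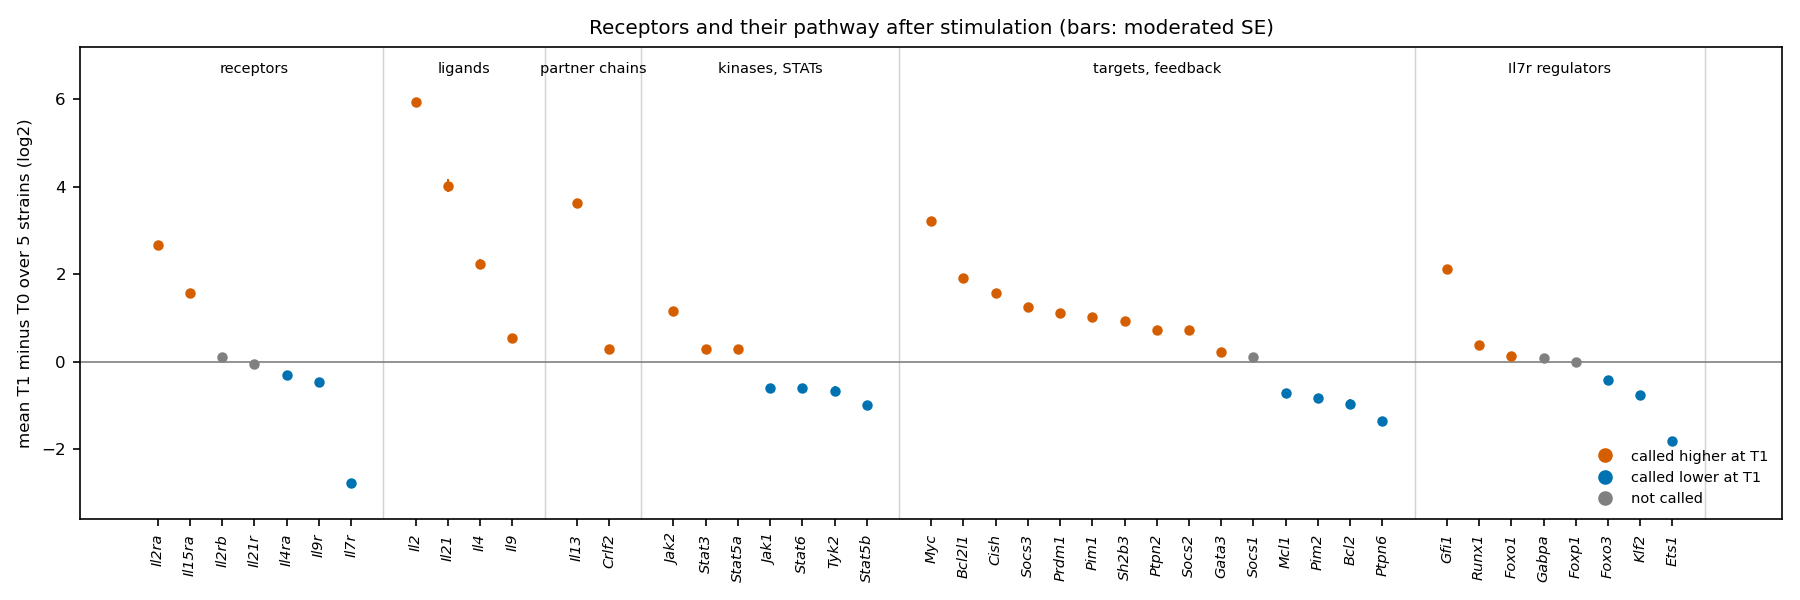
Mean change after stimulation over the 5 strains, T1 minus T0 on the log2 scale with moderated standard errors, for the receptor genes and 5 lists of pathway genes. Il2, at 5.94, is the highest point and Il7r, at -2.78, the lowest, and grey points were not called.

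Il2ra and Il15ra are near neighbours on chromosome 2, and Il4ra and Il21r on chromosome 7. The gene on the outer side of Il2ra and Il15ra, Rbm17, rose by 0.72 ± 0.06, and that on the other side, Fbh1, fell by 1.03 ± 0.08, with no called strain difference for either. Beside Il4ra and Il21r, Nsmce1 fell by 1.07 ± 0.10 and Gtf3c1 by 0.58 ± 0.05. At T0 Nsmce1 averaged 8.69 (Balb/c), 8.44 (C57BL/6J), 8.40 (A/J), 7.85 (DBA/2J) and 7.37 (129X1/SvJ) (limma adjusted p = 0.000424), the strain order of Il4ra at T0. Gtf3c1 was not called over strains at T0 (limma adjusted p = 0.622).

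Across the 34 arrays, after the mean of each time was subtracted, the genes most like Il4ra were Acer2 (r = 0.93) and Socs1 (r = 0.93), and those most like Il2ra were Gbp5 (r = 0.88) and Cish (r = 0.85). Il9r was most like Ppdpf (0.89) and Dhx40 (0.87), Il21r like Aff1 (0.85) and Traf4 (0.85), and Il15ra like Lrpprc (0.79) and Tarbp1 (0.78). Il7r was most like Cyria (0.76) and S1pr1 (0.75), and Il2rb like Ier3 (0.75) and Dgat1 (0.75). These Pearson values were the highest among 11413 genes, and the arrays share strains and groups, so they are descriptions. Between the receptors, Il2ra and Il4ra had r = -0.47 over the 17 T1 arrays and 0.89 over the 17 T0 arrays. Of the sum of squares, strain accounted for 54.1% in Il4ra, 56.5% in Il9r and 65.5% in Il21r. The median over all genes kept was 9.90%. The interaction of strain and time accounted for 31.0% in Il4ra, 28.6% in Il2rb and 23.99% in Il9r, against a median of 4.72%. In the main setting the F test of the response called Il4ra and Il9r but not Il2rb (limma adjusted p = 0.117).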

How the data were processed

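The deposited table holds log2 intensities, 1 value per probe set and array, which the authors made with RMA, per the submitters' processing notes. RMA corrects background, makes array distributions alike and summarises each probe set. No version or build is given in the sources used. The array scans themselves were not used, so the number of arrays limits the precision. Variants between strains under the probes were not examined.

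The table has 35556 probe sets, of which 21789 were listed with 1 symbol, 1621 with several and 12146 with none. The brightest probe set stood for each of 19938 genes, and 11413 were kept, those with a highest group mean of at least 5.327. A linear model with 10 groups (5 strains by T1 and T0) was fitted to all 34 arrays with limma 3.58.1 in R 4.3.3, with 24 residual degrees of freedom, and was tested on simulated data. Contrasts were T1 minus T0 per strain and on average, each strain against the mean of the other 4, and moderated F tests over strains for T0, T1 and the response. Adjusted p is by Benjamini-Hochberg over all genes kept, and ± after a change is the moderated SE. The receptor genes and the pathway and marker lists were chosen with earlier results of these data known. All receptor genes are named. From each list the 2 largest called rises and falls and all ligands are named, with the direct neighbours and the 2 genes most like each receptor by correlation. Cd4, Cd3e, Foxp3, Jak1, Stat5a, Stat6, Cish and Socs1 were named after their values were seen. Tables and figures were made in Python 3.11.15. Promoters came from RefSeq (GRCm38.p6).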

Additional observations from a re-analysis of the deposited data

Results flagged for a closer look

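The lowest A/J T0 array of Il2rb, replicate 2 at 8.70, lay far from the other 3 arrays of its group. It was the 1 such array among 28 groups of 4 arrays examined, and chance marks about 5% of groups. The response differed between strains by the moderated F test of limma in 3 receptor genes, with spans over strains of 2.31 log2 in Il4ra, 1.66 in Il2ra and 1.58 in Il9r. The Il9r span rests in part on an A/J T0 mean of 5.04, under the limit of 5.327. Among the 67 pathway and receptor genes kept, 24 had such a call, the 3 receptor genes included, beside 6.92% of all genes. The lists were chosen with earlier results of these data known, so nothing is read from this count. In fits without 1 array, 5 of the 24 lost the call at least once and 19 kept it. Of these 5, Bcl2 lost it in 27 fits, Il6st in 25, Mcl1 in 23, Il6ra in 4 and Stat5b in 1, with adjusted p up to 0.127, 0.0926, 0.130, 0.0568 and 0.0531 in that order. The spans of the cytokine genes were 4.71 in Il4, 1.74 in Il13 and 1.33 in Il2, and those of Il13 and Il2 rest in part on T0 means under the limit of 5.327. Among STAT genes they were 1.53 in Stat5a, 0.83 in Stat3 and 0.54 in Stat5b. Among target and feedback genes they were 2.50 in Cish, 1.89 in Socs1, 1.38 in Socs3, 1.38 in Bcl2l1, 1.33 in Bcl2, 1.08 in Ptpn6, 1.00 in Gata3, 0.63 in Pim1 and 0.46 in Mcl1, and Gfi1 had 0.72. Among other receptors they were 1.69 in Il12rb2, 1.65 in Lifr, 1.29 in Il18r1, 0.99 in Il6ra and 0.47 in Il6st.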

How the results depend on the processing

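The mean changes of Il2ra, Il7r and Il15ra and the strain F calls of Il2ra, Il4ra and Il9r at T0 and of the response kept their call and direction under all alternatives run, which were 2 filters on low values, 2 further normalizations, the mean of all probe sets, 2 replicate blocks, 2 variance models, arrays of some numbers only and leaving out each array. Centring arrays on their median brought the calls in DBA/2J to 5 of 7 and in 129X1/SvJ to 7. It called Il2rb in A/J (0.48), Balb/c (0.46), DBA/2J (0.40) and 129X1/SvJ (0.43), and Il21r in 129X1/SvJ (0.43). Array weights, and the number across strains as a replicate block, brought the calls of the response to 5. Both also called Il2rb in A/J (limma adjusted p = 0.0122 and 0.0289). So did the stricter filter (limma adjusted p = 0.0481), quantile normalization again (limma adjusted p = 0.0427) and the trend and robust variance model (limma adjusted p = 0.0479). The F test of the response called Il7r with array weights (limma adjusted p = 0.0074) and with the number across strains as a block (0.0336). It also did so with the stricter filter (0.0436), the trend and robust variance model (0.0335) and without both Balb/c arrays of number 2 (0.0166). With numbers 1 and 2 only, the calls were 1 at T1 and 3 at T0, and with numbers 3, 4 and 5 only, 3 at T1. Leaving out single arrays gave 3 to 5 calls of the response. Changes that switched sign were small in the main setting or rested on fewer arrays. For Il21r they were -0.0447 in DBA/2J (quantile normalization again), 0.18 on average and 0.25 in C57BL/6J (centred), 0.0441 in C57BL/6J and -0.0344 in DBA/2J (array weights), 0.12 on average and 0.10 in C57BL/6J (numbers 1 and 2) and -0.0604 in DBA/2J and -0.222 in 129X1/SvJ (numbers 3, 4 and 5). With single arrays left out they ranged from -0.126 to 0.0665 in C57BL/6J and from -0.0361 to 0.123 in DBA/2J. The others were Il4ra in DBA/2J at -0.0645 and Socs1 on average at -0.10 (numbers 1 and 2), and Il2rb on average at -0.0116 (numbers 3, 4 and 5). The cause was not tested.

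Samples of 1 strain with the same number deviated together with a correlation over 0.1 in 14 of 17 pairs. No label says that a number marks a shared mouse or day. In 3 pairs the correlation was under 0.1, which does not show that the samples were unpaired. The fit without the block was kept, and whether Il2rb was called depended on this choice. With strain and number as a replicate block, 6 of 7 receptor genes were called for mean stimulation, Il2rb among them (limma adjusted p = 0.0283), Il2rb was also called in A/J (0.28, limma adjusted p = 0.0143) and Balb/c (0.26, limma adjusted p = 0.0454), and 4 for the response, Il2rb again (limma adjusted p = 0.0225). Arrays of other strains with the same number and time had a median correlation of 0.24, against -0.10 for other numbers.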
